A study of Homo sapiens with 18 samples.

Results

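The 9 genes described here encode complement components and regulators that stromal cells can make: the proteases C1R and C1S of the C1 complex, their inhibitor SERPING1, the central component C3, the protease CFI that degrades activated C3, the terminal component C7, and the membrane regulators CD46, CD55 and CD59. They were matched by symbol among the 78724 genes in the table of counts, and all 9 were found. Of these, 7 passed the filter on low counts and were tested together with all other expressed genes, 15558 in all. C3 and CFI fell below the filter, and C7 passed it only through its hormone-treated libraries.

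The cells were THESC, an established human line of endometrial stromal cells, the fibroblast-like cells beneath the epithelium of the uterus, immortalised with telomerase. Of 3 lines made with CRISPR guide RNAs, NT cells carry a guide with no target and have the label WT, U1U2 cells carry the U1U2 guides and have the label PGRA/B-equivalent, and promoter cells carry the Promoter guide and have the label PGRB-dominant. PGR is the progesterone receptor gene, and PGRA and PGRB are its isoforms. After a day in low serum, each line was held for 72 hours in charcoal-stripped serum with vehicle (0.01% ethanol) or with 1 µM medroxyprogesterone acetate (MPA), a synthetic progestin. Each of the 6 groups has 3 libraries, 18 in all, from poly(A) RNA and under 1 batch label. The labels say neither whether a line is a single clone nor whether replicates were separate cultures, so p-values measure the spread between these libraries, which may be technical.

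Complement is a cascade of plasma and tissue proteases that marks surfaces for removal. The classical pathway starts when C1q binds a target and C1R then activates C1S, which cleaves C4 and C2. The cascade converges on cleavage of C3 and ends in a pore of C5b, C6, C7, C8 and C9. SERPING1 inactivates C1R and C1S, CD55 speeds the decay of the convertase enzymes, CD46 serves as cofactor for the CFI protease, and CD59 blocks the final pore. In endometrium, CD55 and C3 are known as genes whose levels vary with the menstrual cycle.

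Totals ran from 11.9 to 33.4 M counts per library. NT vehicle replicate 1 was the shallowest and had the highest mitochondrial share, 3.03%. All 12 stromal markers were tested, with a summed level of 9694 to 16642 CPM (counts scaled to library size) per library. The sum was 11.9 to 36.8 CPM for 7 epithelial markers, 42.3 to 74.9 for 6 endothelial markers, nearly all of it TEK, and 2.30 to 5.96 for 8 leukocyte markers, mostly PTPRC, with CLDN5 and CD3E at 0 in every library. The summed leukocyte markers were lower in MPA (2.30 to 2.93 CPM) than in vehicle (3.94 to 5.96 CPM), as were the endothelial markers (42.3 to 50.6 against 55.2 to 74.9 CPM). The epithelial sums overlapped, at 11.9 to 25.5 CPM in MPA and 20.2 to 36.8 CPM in vehicle. The part of these markers in the results was not tested. PGR, the targeted gene, had 120, 153 and 147 CPM in the NT vehicle libraries, 674, 531 and 584 in U1U2 vehicle and 433, 475 and 395 in promoter vehicle. In MPA it had 95.1, 82.3 and 76.2 CPM in NT cells, 291, 264 and 226 in U1U2 cells and 264, 303 and 280 in promoter cells. Both lines with activating guides were thus above NT cells in every library of either treatment.

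Because C7 and CD55 were the genes that moved under MPA in all lines, the letters around the motif matches upstream of their RefSeq start sites are shown, with the match in capitals, along with C1R, which held the rarest motif. The windows were the 250 bases before each start on GRCh38.p14, and 6 of the 9 genes had at least 1 window in the RefSeq table (11 windows). Each stretch has 30 bases and reads 5′ to 3′ on the strand of its gene. The first C7 stretch holds AGAACA, the reverse complement of the steroid receptor hexamer TGTTCT, and the second holds TTCNNNGAA, a STAT motif. The CD55 stretches hold TGACG, the core of cyclic AMP response elements, and the C1R stretch holds a palindromic element for steroid receptors, GNACA, then any 3 bases, then TGTNC.
C7, chr5:40909249-40909278, plus strand: aacattgaactgAGAACAtttgctgtgttt
C7, chr5:40909287-40909316, plus strand: atagatatgtTTCTAAGAAacatatctata
CD55, chr1:207321519-207321548, plus strand: ccccggggcgtaTGACGccggagccctctg
CD55, chr1:207321596-207321625, plus strand: tcccacccttggTGACGcagagccccagcc
C1R, chr12:7092092-7092121, minus strand: ccaggacgGGACACTCTGTGCctgtgtccc

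Searched on both strands, TGTTCT was found in 12.4% of all 34943 RefSeq windows of this length and in those of C7, CD46 and CFI. TTCNNNGAA was found in 6.56% of windows and in those of C7, C1R and CD59. TGACG was found in 21.2% of windows and in those of CD55, CD46 and C1R, while the palindromic element was found in 0.326% of windows and, among these genes, in C1R. In GENCODE 29 the C7 and CD55 stretches overlap the untranslated part of an exon of longer transcripts, and the C1R stretch an exon. In all, 9 motifs were searched, and matches of those named next are not printed. The TATA box motif (TATAAA) was found in 10.8% of windows and in that of C7, there on the opposite strand at -213 to -208 from the start. A GC box (GGGCGG) was found in 42.5% of windows and in those of CD46, CD55 and CD59. A FOXO motif (GTAAACA, 2.98% of windows), an interferon response motif (3.02%) and an NF-kappa-B motif (1.73%) were in none of the windows of the 6 genes. The STAT and TGACG matches of C1R and all matches in CD46, CD59 and CFI are not printed either. These letters are a description of the windows, not evidence of binding.

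C7, which joins C5b and C6 to anchor the growing pore in a membrane, was near the limit of detection in vehicle and rose in MPA in every line. The gene lies at chr5:40909252-40982939 on GRCh38 (ENSG00000112936, plus strand). In NT cells its level was 0.251, 0.286 and 0.131 CPM in the vehicle libraries (3, 6 and 2 counts) and 3.29, 1.80 and 1.93 CPM in the MPA libraries (76, 57 and 28 counts). In U1U2 cells it went from 0.138, 0.219 and 0.320 CPM (3, 7 and 10 counts) to 2.39, 1.09 and 1.98 CPM (51, 24 and 58 counts). In promoter cells it went from 0.0314, 0.126 and 0.278 CPM (1, 2 and 10 counts) to 2.22, 1.52 and 1.63 CPM (59, 40 and 36 counts). Every MPA library was above every vehicle library, across lines as well as within them. In these bulk libraries, fewer cells with a transcript and less RNA per cell cannot be told apart.

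The log2 fold change of C7 was 3.34 ± 0.49 (SE) for NT, 2.93 ± 0.44 for U1U2 and 3.50 ± 0.47 for promoter cells. Adjusted p-values by edgeR's quasi-likelihood test were 0.000211, 0.000126 and 3.44e-05, and each of the 24 alternative settings called the rise in each line. From the summed counts the ratios of CPM were 10.2 (95% interval 5.54 to 20.8), 7.77 (4.83 to 13.1) and 11.6 (6.55 to 22.3), where the intervals cover counting error only. Without promoter vehicle replicate 3, which holds 10 of the 13 vehicle counts of that line, the log2 change in promoter cells was 4.71. Because C7 could be tested only through its MPA libraries, a gene with its vehicle level had to differ to be tested at all, and its call adds nothing to a count over the 9 genes.

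CD55, decay-accelerating factor, fell in MPA in all lines. It lies at chr1:207321376-207386804 (ENSG00000196352, plus strand). NT vehicle libraries had 379, 399 and 395 CPM and NT MPA libraries 289, 271 and 312. U1U2 libraries had 363, 361 and 385 CPM in vehicle and 238, 255 and 226 in MPA, and promoter libraries 318, 349 and 305 in vehicle and 206, 229 and 225 in MPA. Within each line the treatments did not overlap. The log2 changes were -0.43 ± 0.08 for NT, -0.63 ± 0.08 for U1U2 and -0.56 ± 0.08 for promoter cells (edgeR adjusted p = 0.00176, 1.77e-05 and 5.07e-05), called in each of the 24 alternatives in each line.

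The other membrane regulators did not pass the test in any line. CD46 (chr1:207752057-207795513, ENSG00000117335, plus strand), the cofactor for cleavage of C3b and C4b, had 211, 270 and 291 CPM in NT vehicle against 239, 204 and 276 in NT MPA, and 245, 268 and 295 in U1U2 vehicle against 312, 236 and 208 in U1U2 MPA. In promoter cells it had 264, 311 and 223 CPM in vehicle and 210, 221 and 217 in MPA, groups that did not overlap. Its log2 changes were -0.11 (95% interval -0.43 to 0.22), -0.10 (-0.42 to 0.23) and -0.30 (-0.62 to 0.03), in the order NT, U1U2 and promoter cells. CD59 (chr11:33703010-33736491, ENSG00000085063, minus strand), the inhibitor of the pore, had log2 changes of 0.06 (-0.26 to 0.38), -0.11 (-0.43 to 0.22) and -0.26 (-0.59 to 0.06). Its libraries spread widely within groups, for example 596, 572 and 827 CPM in NT MPA and 733, 771 and 542 in promoter vehicle, and the treatments overlapped in each line. These intervals leave room for changes of the size seen for CD55 in some lines. CD59 shares 629 exon bases with AL049629.2 on the same strand in GENCODE 29, so its reads may have been split between them.

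**Figure D1:**
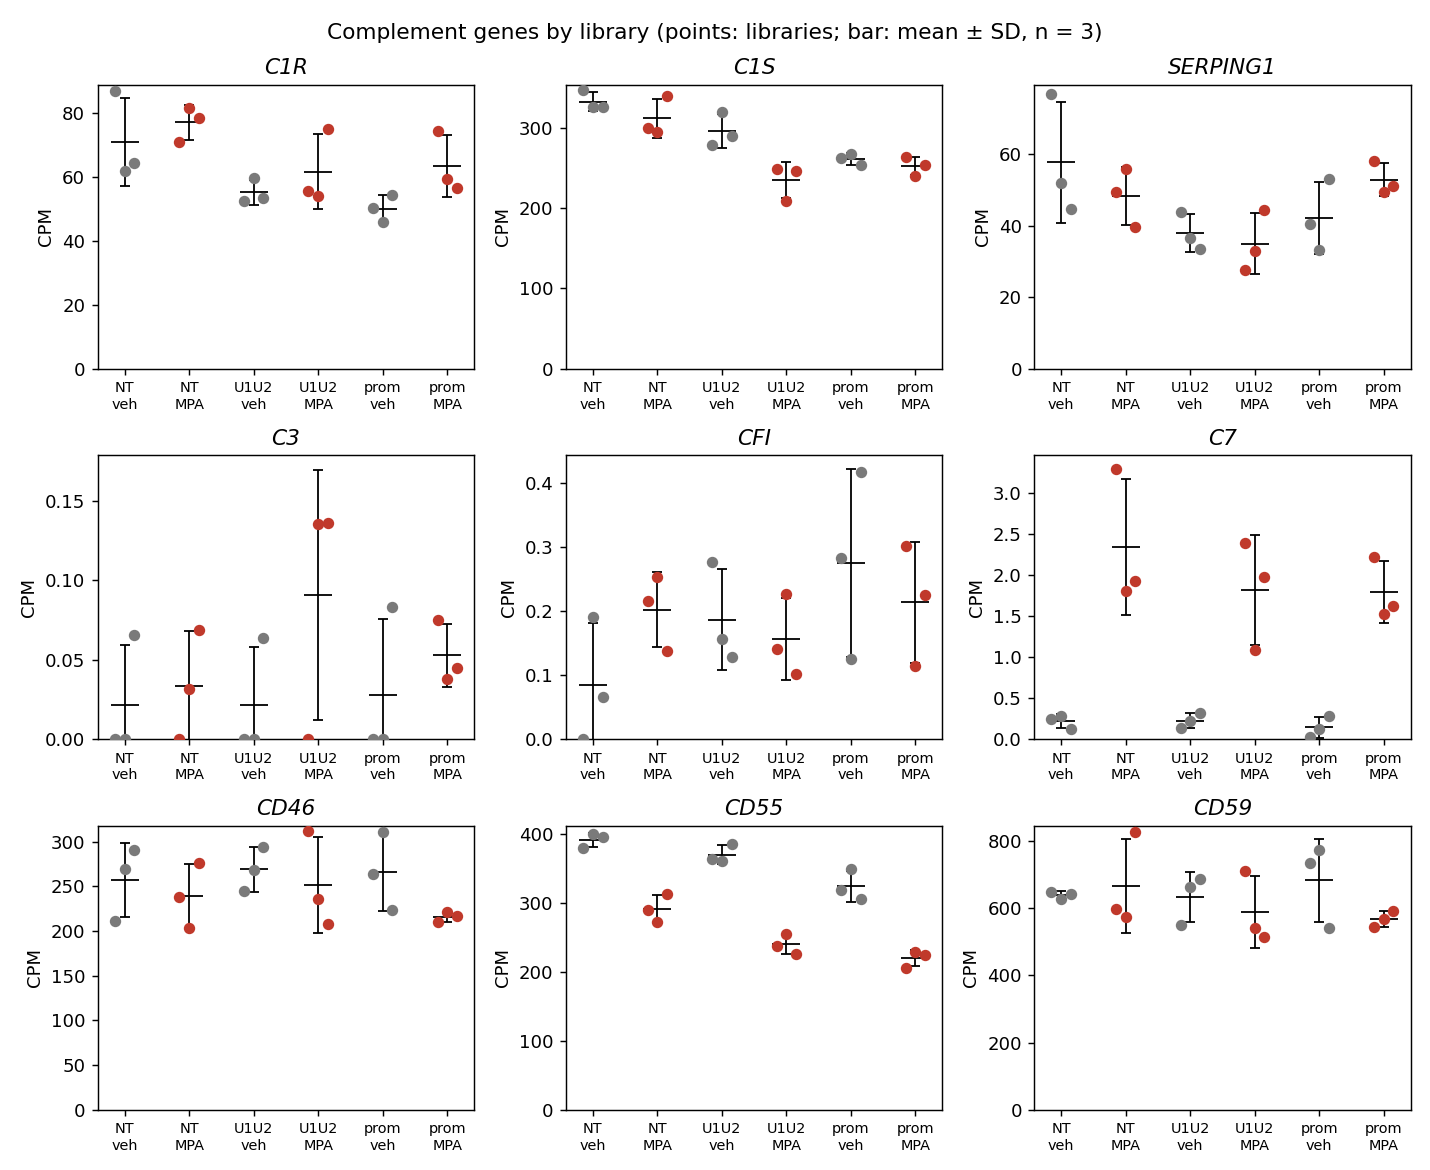
Level of each of the 9 complement genes (vertical axes, CPM, each from 0) in the 6 groups, with vehicle libraries in grey, MPA libraries in red, and the mean ± SD of 3 libraries as a black bar. C7 lay between 0.0314 and 0.320 CPM in vehicle and between 1.09 and 3.29 in MPA, and CD55 was lower in MPA in each line.

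The C1 proteases showed smaller and less regular responses to MPA. C1S (chr12:6988259-7071032, ENSG00000182326, plus strand), which cleaves C4 and C2, had 279, 320 and 290 CPM in U1U2 vehicle and 249, 209 and 246 in U1U2 MPA, with no overlap. That fall, of 0.33 ± 0.08 on the log2 scale, passed (edgeR adjusted p = 0.0125). The call was lost without U1U2 vehicle replicate 2 (adjusted p = 0.0850), without U1U2 MPA replicate 2 (0.0942) and when the pair of groups was fitted alone (0.0993). In NT cells C1S had 346, 326 and 325 CPM in vehicle and 299, 295 and 339 in MPA (log2 change -0.09, 95% interval -0.27 to 0.08). In promoter cells it had 262, 267 and 253 CPM in vehicle and 263, 240 and 254 in MPA (-0.05, interval -0.22 to 0.13). Neither of these lines passed. The U1U2 response minus the promoter response was not called either: promoter minus U1U2 was 0.29 ± 0.12 (edgeR adjusted p = 0.85).

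C1R (chr12:7080199-7092607, ENSG00000159403, minus strand), which activates C1S, had 86.6, 61.7 and 64.2 CPM in NT vehicle and 71.0, 81.6 and 78.2 in NT MPA. In U1U2 cells it had 52.4, 59.4 and 53.4 CPM in vehicle and 55.7, 54.0 and 75.0 in MPA, and in promoter cells 50.1, 45.8 and 54.2 in vehicle and 74.3, 59.2 and 56.6 in MPA. Only in promoter cells did the treatments not overlap, which was not a test of a difference between lines. The log2 changes were 0.12 (95% interval -0.18 to 0.42), 0.16 (-0.14 to 0.46) and 0.34 (0.04 to 0.64). The last did not pass (edgeR adjusted p = 0.131) except with offsets for GC content and length, a setting added after seeing the data (adjusted p = 0.00053).

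SERPING1 (chr11:57597387-57614853, ENSG00000149131, plus strand), which encodes C1 inhibitor, varied widely between replicates. NT cells had 76.7, 51.9 and 44.5 CPM in vehicle and 49.3, 55.9 and 39.7 in MPA. U1U2 cells had 43.9, 36.6 and 33.4 CPM in vehicle and 27.6, 33.0 and 44.3 in MPA, and promoter cells 40.5, 33.1 and 53.0 in vehicle and 58.0, 49.3 and 51.0 in MPA. The treatments overlapped in each line. The log2 changes were -0.25 (95% interval -0.69 to 0.19), -0.11 (-0.55 to 0.33) and 0.32 (-0.12 to 0.75), and none passed.

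C3 and CFI were at the edge of detection in all groups. C3 (chr19:6677704-6730562, ENSG00000125730, minus strand) had 19 counts over the 18 libraries, between 0 and 4 in each, and was at 0 in 8 of them, where a count of 0 allows up to 3 counts. The summed counts per group were 1 in NT vehicle, 2 in NT MPA, 2 in U1U2 vehicle, 7 in U1U2 MPA, 3 in promoter vehicle and 4 in promoter MPA, and no interval of a ratio between groups left out equality. CFI (chr4:109740694-109802179, ENSG00000205403, minus strand) had 88 counts in all, between 0 and 15 per library. Its summed counts were 5 in NT vehicle, 15 in NT MPA, 15 in U1U2 vehicle, 11 in U1U2 MPA, 26 in promoter vehicle and 16 in promoter MPA. The counting interval of 1 ratio left out equality, 3.0 (1.13 to 9.99) for promoter over NT cells in vehicle, but with no filter on low counts its adjusted p by edgeR was 0.266. CFI shares 1562 exon bases with AC126283.2 on the same strand, so reads of these genes may have been split. No difference in either gene was detectable at this depth.

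Counted over the tested genes, MPA changed 2 of 7 in NT cells (C7 higher, CD55 lower), where 5.93% of all tested genes were called. It changed 3 of 7 in U1U2 cells (C7 higher, C1S and CD55 lower), where 11.7% were called, and 2 of 7 in promoter cells (C7 higher, CD55 lower), where 15% were called. Leaving C7 aside, for the reason given above, CD55 alone passed among 6 genes in NT and promoter cells. The median log2 change of the 7 was -0.09, -0.11 and -0.05, against 0.02, 0.03 and -0.00 over all tested genes. Treatments did not overlap for 2 of 7 genes in NT cells, 3 of 7 in U1U2 cells and 4 of 7 in promoter cells, against 19.3%, 23.8% and 35.7% of all tested genes. C7 is in each of these counts, and its separation was bound up with its being tested. Leaving C7 aside, they were CD55 in NT cells, C1S and CD55 in U1U2 cells, and C1R, CD46 and CD55 in promoter cells.

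**Figure D2:**
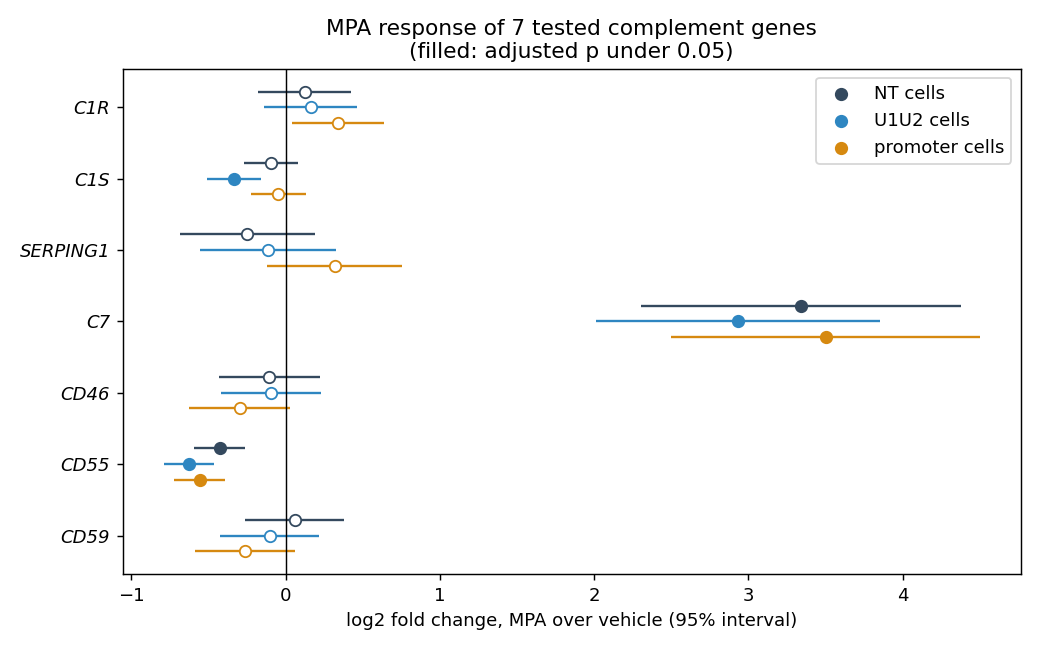
Log2 fold change of MPA over vehicle (horizontal axis) with its 95% interval for the 7 tested genes in NT, U1U2 and promoter cells; filled points passed at an adjusted p under 0.05 by edgeR. C7 stands at 2.93 to 3.50, CD55 at -0.63 to -0.43, and the other intervals reach 0 or lie near it apart from C1S in U1U2 cells.

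Whether MPA acted differently between lines was tested as the difference of responses. No tested gene of the 7 was called by edgeR for U1U2 minus NT, promoter minus NT or promoter minus U1U2 cells, where 0.219%, 1.56% and 0.0129% of all genes were. DESeq2 called none either. For CD55 the differences were -0.20 (95% interval -0.43 to 0.03), -0.13 (-0.36 to 0.10) and 0.07 (-0.16 to 0.30). For C7 they were -0.40 (-2.0 to 1.19), 0.16 (-1.42 to 1.74) and 0.56 (-0.94 to 2.07), so a difference of several-fold could not have been seen at these counts. A missing call does not show that the lines responded alike.

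Between lines in vehicle, C1R, C1S and CD55 were lower in promoter than in NT cells. The log2 differences were -0.50 ± 0.14 for C1R, -0.35 ± 0.08 for C1S and -0.27 ± 0.08 for CD55 (edgeR adjusted p = 0.0465, 0.0163 and 0.0438), 3 of 7 tested genes against 6.75% of all genes called and 3.68% called lower. The lines did not overlap for any of these genes, nor for 21% of all tested genes. The CD55 libraries of promoter vehicle reached at most 349 CPM and those of NT vehicle at least 379 CPM. The calls of C1R and CD55 were fragile, while that of C1S held in 20 of 24 alternatives.

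C1R passed in 14 of 24 alternatives. Without NT vehicle replicate 1, the library with 86.6 CPM of C1R, its difference was -0.33 (adjusted p = 0.141), and its call was also lost without NT vehicle replicate 3, NT MPA replicate 2 or 3, U1U2 vehicle replicate 3, promoter vehicle replicate 1 or 2, or promoter MPA replicate 2 (adjusted p = 0.0514 to 0.163 by edgeR over these). It was lost too with the pair of groups fitted alone (0.0964). CD55 passed in 6 of 24 alternatives, and among the leave-outs its call survived only those of NT vehicle replicate 1, NT MPA replicate 2 or 3, and promoter vehicle replicate 2. The other 14 gave edgeR adjusted p-values of 0.0511 to 0.202, with the difference between -0.28 and -0.23. CD55 also lost its call with RLE factors (adjusted p = 0.0704), with no filter (0.326) and with the pair of groups fitted alone (0.191). For C1S the call was lost without NT vehicle replicate 2 (0.0561) or promoter vehicle replicate 1 (0.0736), without a filter (0.0864) and with the pair of groups fitted alone (0.0877). C1R shares 672 exon bases with C1RL and C1S 229 with EMG1, in each case on the same strand, so some of their reads may have been split.

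U1U2 cells in vehicle gave no call against NT cells by edgeR or by DESeq2 among the 7 genes, where edgeR called 1.14% of all genes. The largest differences were those of SERPING1 (-0.60 ± 0.21, edgeR adjusted p = 0.17) and C1R (-0.36 ± 0.14, adjusted p = 0.237). For both, as for C1S, the U1U2 libraries lay below all NT libraries. Libraries of these groups did not overlap for 16.2% of all tested genes. SERPING1 had 33.4 to 43.9 CPM in U1U2 vehicle and 44.5 to 76.7 in NT vehicle. With no filter SERPING1 passed by edgeR (-0.56, adjusted p = 0.00153), a setting in which 808 genes were called against 178 with the filter. With the offsets for GC content and length both passed (-0.64, adjusted p = 0.0264 for SERPING1, and -0.43, adjusted p = 0.00337 for C1R, by edgeR). Promoter and U1U2 cells in vehicle also differed in none of the 7 by edgeR or DESeq2, against 0.784% of all genes called by edgeR. C1S was at -0.18 (95% interval -0.36 to -0.01) and CD55 at -0.19 (interval -0.36 to -0.03) there (edgeR adjusted p = 0.542 and 0.434).

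In MPA, C1S was lower in U1U2 than in NT cells and CD55 lower in promoter than in NT cells. C1S differed by -0.41 ± 0.08 on the log2 scale (edgeR adjusted p = 0.0139), with U1U2 libraries at 209 to 249 CPM and NT libraries at 295 to 339 CPM. It was 1 of 7 genes called, against 1.72% of all genes and 0.938% called lower, and its call was lost without NT MPA replicate 3 (0.0821), without U1U2 MPA replicate 2 (0.145) and with the pair of groups fitted alone (0.248). CD55 differed by -0.40 ± 0.08 between promoter and NT cells (edgeR adjusted p = 0.00415), 206 to 229 against 271 to 312 CPM. It too was 1 of 7 called, against 4.15% of all genes and 2.37% called lower, and passed in 23 of 24 alternatives, the exception being without promoter MPA replicate 1 (adjusted p = 0.0585).

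CD55 and C1S were also lower in the other line than in NT cells in MPA, without passing by edgeR at the settings used throughout. CD55 in U1U2 against NT cells was -0.28 ± 0.08 (edgeR adjusted p = 0.0961), and C1S in promoter against NT cells was -0.30 ± 0.08 (adjusted p = 0.0514 by edgeR and 0.0171 by DESeq2). With the offsets for GC content and length both passed by edgeR (adjusted p = 0.00985 for CD55 and 0.0235 for C1S), and C1S also passed without NT vehicle replicate 1 (0.0483). In both, the libraries of the lines did not overlap, nor did they for 11.9% and 23.1% of all tested genes. C1R against NT cells was -0.32 ± 0.14 in U1U2 and -0.28 ± 0.14 in promoter cells (edgeR adjusted p = 0.494 and 0.408). Its libraries overlapped, and it passed only with those offsets (edgeR adjusted p = 0.0192 and 0.0363). SERPING1 was -0.47 ± 0.21 in U1U2 cells (edgeR adjusted p = 0.497), passing only with no filter (0.0458). In promoter cells SERPING1 was 0.12 (edgeR adjusted p = 0.868). Between promoter and U1U2 cells in MPA neither edgeR nor DESeq2 called any of the 7 genes, where edgeR called 0.328% of all genes. SERPING1 differed most there, at 49.3 to 58.0 CPM in promoter and 27.6 to 44.3 CPM in U1U2 cells (log2 difference 0.59 ± 0.21, edgeR adjusted p = 0.677), in a comparison without overlap for 9.64% of all genes. With no filter that difference passed by edgeR (0.58, adjusted p = 0.00345). The comparisons with NT cells share those libraries, so they are not independent of each other.

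**Figure D3:**
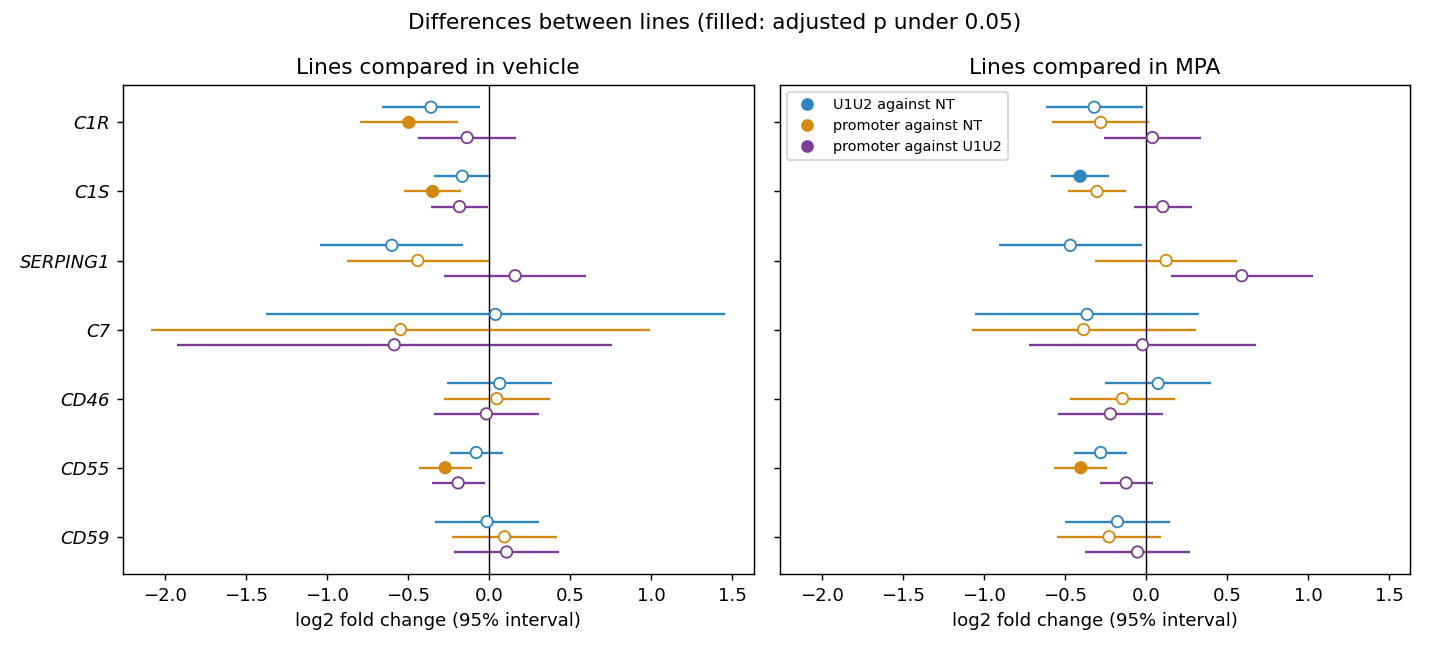
Log2 differences between lines (horizontal axes) with 95% intervals for the 7 tested genes, in vehicle (left) and in MPA (right); filled points passed at an adjusted p under 0.05 by edgeR. C1R, C1S and CD55 were lower in promoter than in NT cells in vehicle, at -0.50, -0.35 and -0.27, and no point comparing promoter with U1U2 cells is filled.

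Ordered by mean level, CD55 ran from 391 ± 10.5 CPM (SD, n = 3) in NT vehicle through 370 ± 13.5 in U1U2 vehicle, 324 ± 22.5 in promoter vehicle, 291 ± 20.5 in NT MPA and 239 ± 14.4 in U1U2 MPA to 220 ± 12.2 in promoter MPA. The libraries of neighbours overlapped between NT and U1U2 vehicle, promoter vehicle and NT MPA, and U1U2 and promoter MPA. C7 ran from 2.34 ± 0.83 CPM in NT MPA, 1.82 ± 0.67 in U1U2 MPA and 1.79 ± 0.38 in promoter MPA down to 0.226 ± 0.091, 0.223 ± 0.081 and 0.145 ± 0.125 in U1U2, NT and promoter vehicle, and only the step from promoter MPA to U1U2 vehicle was free of overlap. C1S ran from 332 ± 11.95 CPM in NT vehicle, 311 ± 24.4 in NT MPA and 296 ± 21.4 in U1U2 vehicle to 261 ± 7.25 in promoter vehicle, 252 ± 11.5 in promoter MPA and 235 ± 22.4 in U1U2 MPA. Its only step without overlap was the one from U1U2 vehicle to promoter vehicle. For C1R, SERPING1, CD46, CD59, C3 and CFI every pair of neighbours in the order overlapped. The highest group mean over the lowest was 16.1 for C7, 1.78 for CD55, 1.65 for SERPING1, 1.54 for C1R, 1.42 for C1S, 1.25 for CD46 and 1.2 for CD59.

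Per length, in RPKM (CPM divided by exon length in kilobases, median over 18 libraries), the order of levels was CD59 at 59.0, CD55 at 52.2, C1S at 42.2 and CD46 at 27.8. SERPING1 stood at 12.3 and C1R at 10.1. C7 (0.135 RPKM), CFI (0.0356) and C3 (0.00418) were orders of magnitude lower. Among other complement genes, the pattern recognition protein PTX3 had 209 RPKM, the C1q-binding mitochondrial protein C1QBP 45.2 and the lectin pathway protease MASP1 12.3.

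**Figure D4:**
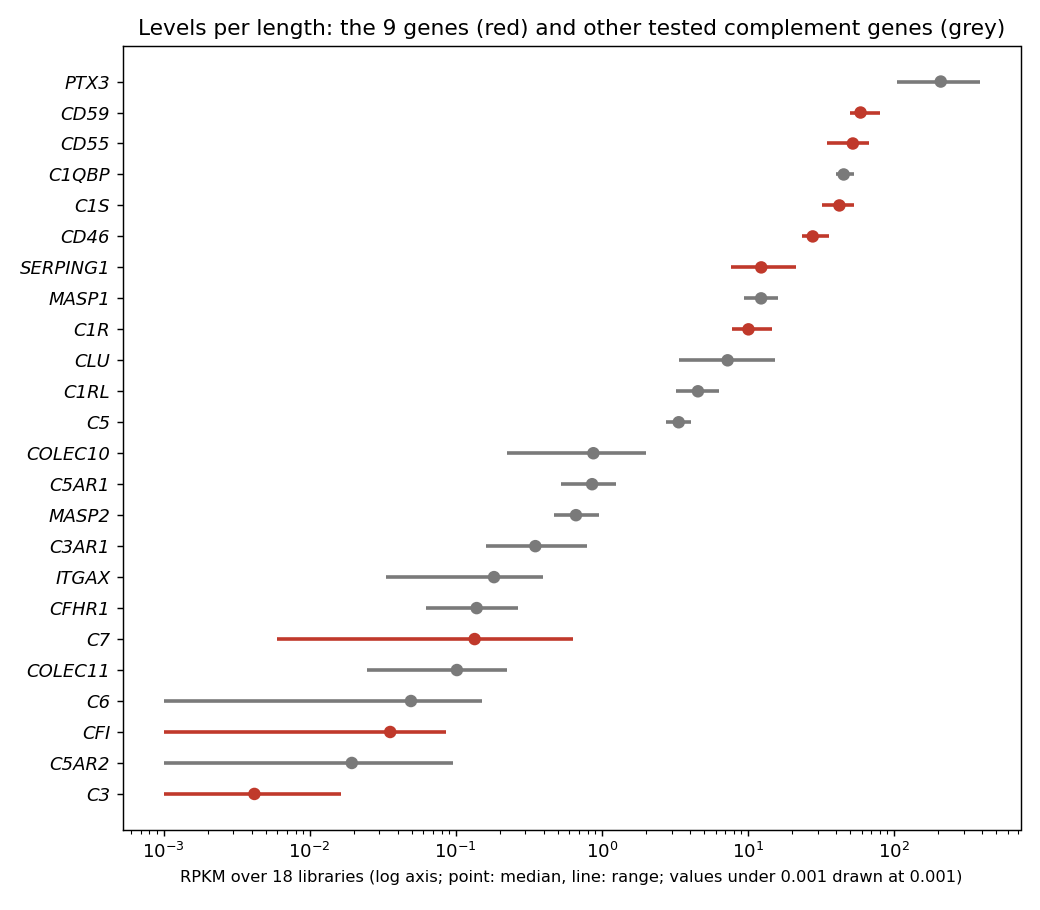
Level per length of the 9 genes (red) and of other tested complement genes (grey) on a log axis in RPKM; points are medians over 18 libraries and lines run from the lowest to the highest library, with values under 0.001 drawn at 0.001. CD59, CD55 and C1S lie above 40 RPKM, while C7 spans 0.00602 to 0.630 RPKM and C3 stays under 0.0164.

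Base composition differed between libraries and moved with several of these genes. For each library a slope of log2 deviation on gene GC content was computed, which ran from -0.208 to 0.212 per 10 percentage points. C1R, with 55.3% GC in its exons, was highest in the library of highest slope in 5 of 6 groups, and SERPING1 (57.2%) in 4 of 6. CD46 (37.7%) was lowest in that library in 4 of 6 groups and CD55 (41.4%) in 5 of 6. NT vehicle replicate 1, the highest for C1R and SERPING1, had a slope of 0.177, against -0.145 and -0.208 in the other NT vehicle libraries. Its part in the results was not tested beyond the offsets for GC and length, with which CD55 and C7 kept their calls under MPA in all lines.

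After subtracting group means, SERPING1 and CD46 varied in opposite directions across the 18 libraries (Pearson's r = -0.96), and CD46 and CD59 varied together (r = 0.80), as did C1R and SERPING1 (r = 0.73). These are descriptions over libraries that share depth and base composition, with no test. Over log2 CPM in all 18 libraries, the tested genes most like C7 were GRIA1, a glutamate receptor subunit (Pearson's r = 0.963), ERRFI1, an inhibitor of EGF receptor signalling (0.954), and C1orf21 (0.952). Within groups those values were 0.425, 0.314 and 0.400, so most of the likeness lay between groups. The genes most like CD55 were CHRM2, a muscarinic acetylcholine receptor (0.980), DENND5B (0.978) and PDE4B, a cyclic AMP phosphodiesterase (0.974). For C1S they were COL14A1, a fibril-associated collagen (0.933), UBE2H (0.911) and MR1 (0.899), and for C1R SERPINF1, pigment epithelium-derived factor (0.909), OLFML3 (0.899) and PLXND1 (0.876). Within groups the values were 0.642, 0.767 and 0.334 for the CD55 genes and 0.820, 0.763 and 0.862 for the C1S genes. For the C1R genes they were 0.899, 0.930 and 0.939, so that likeness lay within groups as well. For SERPING1 (MPV17, CD276 and SDC3), CD46 (PIGN, RAB11A and DESI2) and CD59 (UBE2E3, ESD and RPS20) the likeness was at least as high within groups, at 0.944 to 0.983.

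Of 52 other complement genes, 15 passed the filter and 17 were at 0 counts in all 18 libraries, among them the C1q chains C1QA, C1QB and C1QC, the lectin MBL2, the pore components C8A and C8B and the receptors CR1 and CR2. The remaining 20 reached at most 16 counts in any library. These cells thus had transcripts of the C1 proteases and of membrane regulators, with next to none counted for C1q, C3 or C4A. C4A and C4B had 9 counts each over the 18 libraries. How reads that match several genes were counted is not given, so their transcripts may be undercounted.

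MPA raised 3 and lowered 2 of the 15 in NT cells, raised 3 and lowered 4 in U1U2 cells, and raised 4 and lowered 4 in promoter cells, where 2.44% and 3.48%, 5.44% and 6.22%, and 6.63% and 8.40% of all genes were called higher and lower. Their median log2 change was 0.06, 0.13 and 0.16, against 0.02, 0.03 and -0.00 over all genes. PTX3, which binds C1q, rose from 212 ± 13.4 to 452 ± 59.5 CPM in NT cells, from 264 ± 3.94 to 647 ± 89.6 in U1U2 cells and from 312 ± 74.2 to 594 ± 26.3 in promoter cells. Its log2 changes were 1.09, 1.29 and 0.93 (edgeR adjusted p = 3.85e-05, 2.57e-06 and 7.95e-05). C6, the partner that binds before C7, rose from 6 to 34 summed counts in NT cells, from 10 to 29 in U1U2 cells and from 11 to 46 in promoter cells (log2 changes 1.95, 1.74 and 2.20, edgeR adjusted p = 0.0443, 0.0274 and 0.00204), though the NT call held in 8 and the U1U2 call in 17 of 23 alternatives. C5AR2, a receptor for C5a, went from 1 to 20 counts in NT cells, a ratio of 13.9 (counting interval 2.23 to 577), and from 1 to 25 in U1U2 cells, a ratio of 29.2 (4.78 to 1199). In promoter cells it went from 0 to 36 counts, at least 13.4-fold higher if vehicle is set to a floor of 3 counts per group, with a lower 95% counting limit of 10.3 for the ratio (edgeR adjusted p = 0.0342, 0.00173 and 0.000124, the NT call holding in 15 of 23 alternatives). Like C7, C6 and C5AR2 passed the filter only through MPA libraries, so their rise was bound up with their being tested. Of the 11 genes that pass on the vehicle libraries alone, MPA raised 1 and lowered 2 in NT cells, raised 1 and lowered 4 in U1U2 cells, and raised 2 and lowered 4 in promoter cells.

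CLU, clusterin, which keeps the pore from inserting into membranes, fell in each line, from 84.5 ± 14.9 to 41.8 ± 2.66 CPM in NT cells, from 75.1 ± 9.07 to 30.3 ± 5.68 in U1U2 cells and from 59.7 ± 7.79 to 24.2 ± 3.14 in promoter cells (log2 changes -1.01, -1.31 and -1.31, edgeR adjusted p = 0.000194, 5.72e-06 and 4.89e-06). COLEC10, a collectin of the lectin pathway, also fell in each line, by 1.64, 1.72 and 2.91 on the log2 scale (edgeR adjusted p = 5.64e-05, 2.11e-05 and 3.11e-08). In promoter cells it went from 3.12 ± 0.22 to 0.413 ± 0.040 CPM. ITGAX, the alpha chain of complement receptor 4, fell in U1U2 cells (-1.49, edgeR adjusted p = 0.00131) and promoter cells (-2.13, 2.94e-06), and C5AR1, the main C5a receptor, in the same lines (-0.59 and -0.65, adjusted p = 0.0493 and 0.0262), its U1U2 call holding in 4 of 24 alternatives. ITGAX is a leukocyte gene, and PTPRC, the pan-leukocyte marker, went from 4.86 to 1.94, 3.72 to 1.71 and 4.29 to 1.96 CPM in NT, U1U2 and promoter cells. The part of such cells in the ITGAX result was not tested. C1RL, a C1R-like protease, rose in promoter cells (0.45, adjusted p = 0.0195).

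**Figure D5:**
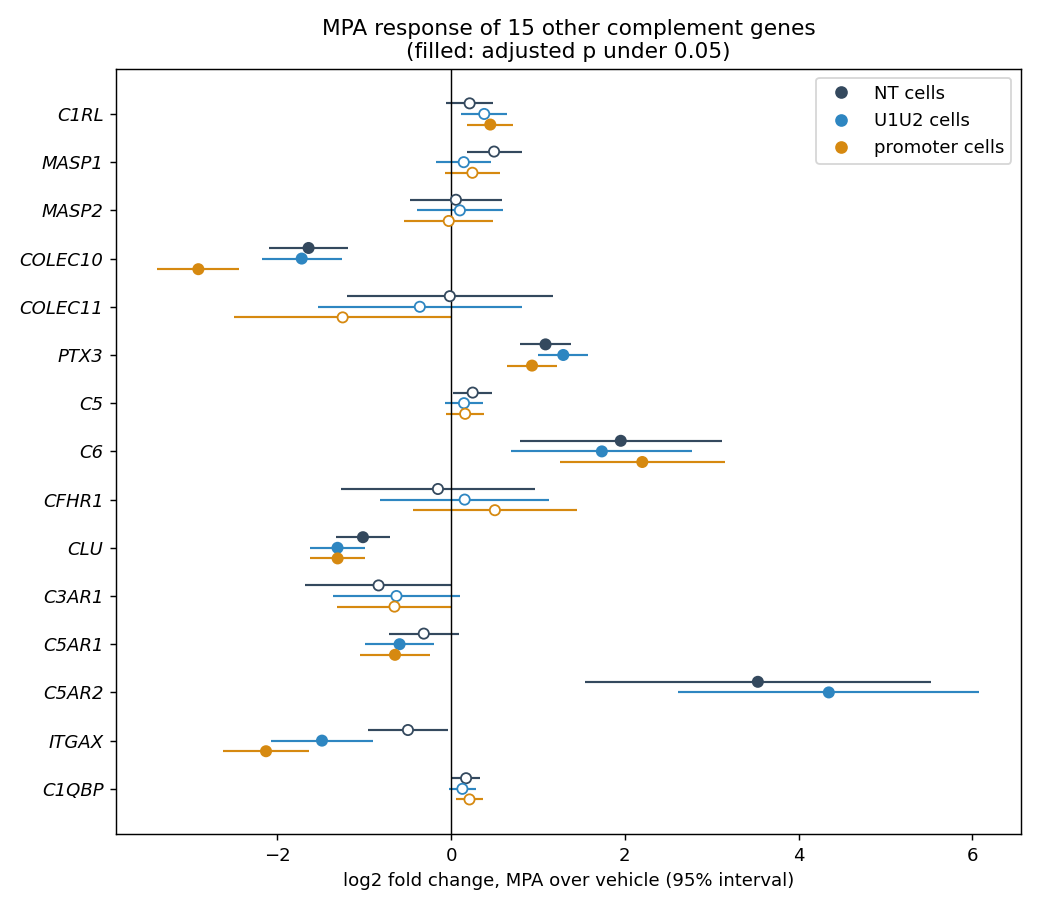
Log2 fold change of MPA over vehicle (horizontal axis) with 95% intervals for the 15 other complement genes that were tested, in the 3 lines; filled points passed at an adjusted p under 0.05 by edgeR. C5AR2 in promoter cells is left out because all its vehicle libraries had 0 counts. PTX3 and C6 lie right of 0 and COLEC10 and CLU left of 0 in each line.

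SERPING1 also controls the contact system, which releases the vasoactive peptide bradykinin. Of 6 contact and kinin genes, the bradykinin receptors BDKRB1 and BDKRB2 were tested, and the other 4 reached at most 5 counts in any library. BDKRB2, the constitutive receptor, fell in MPA from 73.5 ± 2.68 to 38.8 ± 2.86 CPM in NT cells, from 51.6 ± 5.40 to 22.3 ± 4.07 in U1U2 cells and from 53.9 ± 4.45 to 19.4 ± 2.81 in promoter cells. Its log2 changes were -0.92, -1.21 and -1.47 (edgeR adjusted p = 0.000113, 2.68e-06 and 1.95e-07). BDKRB1, the inducible receptor, fell in promoter cells, from 48 to 16 summed counts (-1.43, edgeR adjusted p = 0.0277), a call that held in 18 of 24 alternatives. It reached the cutoff of the filter in 7 vehicle libraries and 0 MPA libraries. Its fall was thus bound up with its being tested.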

How the data were processed

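The values used are raw read counts per gene, as the authors deposited them, for 18 libraries. Per the submitters' processing notes the tools were edgeR 4.2.2, R 4.4.1 and STAR 2.6.0c, with the build hg38 and no roles given. How reads were counted, with which strand setting and annotation, is not given in the sources used here, so genes that share exon bases may have gained or lost reads. Totals ran from 11.9 to 33.4 M counts, and all 18 pairs of replicates differed beyond sampling noise (chi-square per degree of freedom 1.84 to 30.9).

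The counts were analysed here with edgeR 4.0.16 in R 4.3.3: filterByExpr at its minimum count of 10 (a cutoff of 0.437 CPM in 3 libraries), TMM factors, 1 term per group over all 18 libraries, and quasi-likelihood tests of 12 contrasts. P-values were adjusted with the Benjamini-Hochberg method over 15558 genes, and calls were made at 0.05. Printed adjusted p-values are from this test unless another is named. CPM uses TMM-scaled totals, RPKM the union of exons in GENCODE 29, and log2 CPM a prior count of 2. The code was checked on simulated counts with known changes in NT MPA. Those counts held no differences in base composition between libraries, so the check does not cover such differences. Alternatives were RLE factors, DESeq2 1.42.0, no filter, the groups of a contrast alone, replicate number as a block, each library left out, and, chosen after seeing the data, offsets for GC content and length.

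The 9 genes and the comparison lists were chosen with earlier results of these data known. The 9 genes are always named, listed genes by role, and for each tested member the 3 genes with the highest Pearson's r over log2 CPM, among those tested whose mean log2 CPM was 1 or more.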

Additional observations from a re-analysis of the deposited data

Results flagged for a closer look

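ITGAX, the alpha chain of complement receptor 4, fell more under MPA in promoter than in NT cells by the test of the difference itself. The difference of log2 responses, promoter minus NT, was -1.63 (edgeR adjusted p = 0.0127). ITGAX had 2.45 ± 0.13 CPM (SD, n = 3) in NT vehicle and 1.70 ± 0.39 in NT MPA, against 2.55 ± 0.42 and 0.589 ± 0.082 in promoter cells and 1.00 ± 0.18 and 0.347 ± 0.105 in U1U2 cells. The difference was called in 22 of 24 alternatives. It was lost without NT MPA replicate 2 (-1.39, adjusted p = 0.0527) and without promoter MPA replicate 2 (-1.52, adjusted p = 0.0559). The fall in NT cells was itself not called (-0.50, edgeR adjusted p = 0.25). The difference U1U2 minus NT was not called either (-0.99, edgeR adjusted p = 0.429). ITGB2, listed for the beta chain of this receptor, had 4 counts over the 18 libraries and was at 0 in 15 of them.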

How the results depend on the processing

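The rise of C7 and the fall of CD55 under MPA kept their direction and their call in every line under all 24 alternatives. Of 2012 values for single members over the alternatives, 1959 stayed on the same side of the threshold, 39 lost their call and 14 gained one. The sign changed in 48 values, all of differences that passed neither way and were at most 0.25 in size (log2) at the settings used throughout. RLE factors kept all 36 counts of calls within 1.5 times. The cause of the shifts given here was not tested. With no filter, the members called were 1 for U1U2 against NT in vehicle, 2 for U1U2 against NT in MPA and 1 for promoter against U1U2 in MPA, against 0, 1 and 0. The other complement genes were 2 and 3 for U1U2 against NT in vehicle and in MPA, against 1 and 1. All genes were 808 for U1U2 against NT in vehicle (178 with the filter), and 281, 758 and 18 for the differences of responses U1U2 minus NT, promoter minus NT and promoter minus U1U2 (34, 242 and 2). The number of genes tested without the filter is not given, so counts in that setting have no share beside them. Where a setting has no count of all genes named here, that count stayed within 1.5 times the one at the settings used throughout.

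With offsets for GC and length, members called were 2 for U1U2 against NT in vehicle, 3 for U1U2 against NT in MPA and 3 for promoter against NT in MPA. The other complement genes were 8 for MPA in NT cells (5), 2 and 3 for U1U2 against NT in vehicle and in MPA, and 2 for the difference promoter minus NT (1). All genes were 1423 for MPA in NT cells (922), 422, 1789 and 275 for the lines in vehicle (178, 1050 and 122, in the order U1U2 against NT, promoter against NT, promoter against U1U2), 494, 1058 and 94 in MPA (268, 645 and 51), and 102, 447 and 32 for the differences of responses. With the groups of a contrast alone, members called were 0 for promoter against NT in vehicle and 0 for U1U2 against NT in MPA. The other complement genes were 3 and 4 for MPA in NT and U1U2 cells (5 and 7) and 0 for each pair of lines in vehicle. All genes were 491 and 1049 for MPA in NT and U1U2 cells (922 and 1814), 4, 435 and 11 in vehicle, 85 and 16 for U1U2 against NT and promoter against U1U2 in MPA, and 8 and 0 for U1U2 minus NT and promoter minus U1U2. With DESeq2, 2 members were called for promoter against NT in MPA and 2 other complement genes for U1U2 against NT in MPA. All genes were then 473 and 265 for U1U2 against NT and promoter against U1U2 in vehicle, 88 for promoter against U1U2 in MPA, and 123, 458 and 58 for the differences.

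Over the 18 fits that leave out a library, members called ran from 0 to 2 for promoter against NT in vehicle (3), 0 to 1 for U1U2 against NT in MPA (1) and 0 to 2 for promoter against NT in MPA (1). The other complement genes ran from 3 to 6 for MPA in NT cells, 0 to 1 and 0 to 3 for U1U2 and promoter against NT in vehicle (1 and 2), 1 to 2 for U1U2 against NT in MPA (1) and 0 to 2 for promoter minus NT (1). All genes ran from 612 to 972 for MPA in NT cells, 23 to 639, 472 to 1347 and 39 to 150 for the lines in vehicle, 154 to 295, 390 to 726 and 15 to 61 in MPA, and 8 to 47, 116 to 271 and 0 to 9 for the differences. Where a group was left with 2 libraries, the spread was shared with the other groups.

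The replicate numbers do not pair the libraries: deviations of same-numbered libraries correlated at -0.52 to 0.50, over 0.1 throughout in 1 of 15 pairs of groups, and 4 of 18 libraries correlated best with their own number. With the number as a replicate block, 1 member was called for promoter against NT in vehicle (3; adjusted p = 0.0745 for C1R and 0.075 for CD55 by edgeR), and the other complement genes were 3 for MPA in NT cells (5) and 1 for promoter against NT in vehicle (2). With the block, all genes called were 62 and 69 for U1U2 against NT and promoter against U1U2 in vehicle, 25 for promoter against U1U2 in MPA, and 12, 150 and 0 for the differences. In vehicle, C3, CFI and C7 had 15 counts or fewer per library, which limits their comparisons.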
